A study of Mus musculus with 12 samples.

Results

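Trimethylation of histone H3 lysine 4 (H3K4me3) normally sits at the starts of genes, and the regions described here carried it elsewhere in both of 2 mouse melanoma cell lines. They are the peaks of the Kmt2d WT line that lay more than 1 kb from both ends of every RefSeq protein-coding and lncRNA gene, were under 4 kb wide and overlapped an H3K4me3 peak of the Kmt2d mutant line by at least 1 bp. The rule found 4429 such regions among 9995 distal WT peaks of that width (44.3%) and among 23154 WT H3K4me3 peaks in all, of which 72.2% overlapped a mutant peak. The regions were chosen by H3K4me3 itself (its presence in both lists and its WT width and position), so their H3K4me3 values are descriptions. The peaks were compared with 5566 distal WT peaks of the same width range that no mutant peak overlapped, called WT-alone here, and with 10117 gene-end peaks under 4 kb found in both lines.

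The series profiled line 971, labelled Kmt2d WT, and line 493, labelled Kmt2d Mutant, by ChIP-seq for H3K4me3, H3K4me1, H3K27ac and H3K27me3. There was 1 library for each line and mark, 8 in all, and the 4 input libraries are not analysed here. Both lines were grown without any labelled treatment, and the labels give neither the nature of the Kmt2d mutation nor the origin of the tumours, so the lines may differ by more than Kmt2d. With 1 library a group there is no replicate check and no test. Shares carry 95% Wilson intervals, which cover counting error alone and do not allow for neighbouring peaks that are not independent. The peak lists give no read depth. They held 17987 H3K4me3, 18751 H3K27ac and 3649 H3K4me1 peaks in the mutant line and 26415 H3K27ac, 17373 H3K4me1 and 25394 H3K27me3 peaks in the WT line, so shares of 1 mark between lines also carry the length of each list. As a check of the labelled cell type, H3K4me3 lay within 1 kb of an end of 13 of 25 melanocyte genes in the WT line and 16 of 25 in the mutant line. It was absent from the ends of the pigment genes Tyr, Tyrp1 and Dct in both lines and from those of Sox10, the neural crest and melanocyte factor, in the WT line. All 27 genes of a list of undifferentiated, invasive or neural crest genes had it in both lines, as did 2 of 10 endothelial and 3 of 12 immune markers. Fibroblast markers had it at 9 and 8 of 12 genes in the WT and mutant lines, and keratinocyte markers at 4 and 7 of 12.

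As background, H3K4me3 is written mainly by the SET1 and MLL1/2 types of methyltransferase complex, which are drawn to unmethylated CpG-rich DNA, and it marks starts of transcription. Kmt2d is the main enzyme for H3K4me1, the methyl mark of enhancers. H3K27ac marks active promoters and enhancers, and H3K27me3 is the mark of Polycomb repression. H3K4me3 away from annotated gene ends can mark alternative starts, starts of small RNA genes, unannotated transcripts or strong enhancers.

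Annotated transcription starts were read as windows from 250 bases before to 50 bases after each start. Such a window overlapped 687 of the 4292 regions off chromosome 18 (16.0%), against 45.1% of all WT H3K4me3 peaks there. A peak that overlapped a window by at least 1 bp is said here to hold or cover that start. RefSeq lists several starts for many genes, and a start more than 1 kb from both gene ends is called a distal start here. Of 4486 distal start windows, each running from 250 bases before to 50 bases after a start, 800 (17.8%) lay in one of the regions, belonging to 662 genes. These windows were rich in CpG, with a median of 18 CpG dinucleotides in 300 bases. The 101 windows in WT-alone peaks had a median of 5, the 712 in other H3K4me3 peaks 19, and the 2873 in no H3K4me3 peak of the WT list 3. Windows with at least 10 CpG made up 80% of those in the regions, 19.8% of those in WT-alone peaks and 9.36% of those without H3K4me3. Read from the sequence, 48.1% of distal starts with 20 or more CpG lay in one of the regions (373 of 775, interval 44.6 to 51.6%), against 1.74% of those with 4 or fewer (34 of 1954, interval 1.25 to 2.42%). The plot of CpG content by H3K4me3 state shows that starts in the regions follow the curve of other H3K4me3-marked starts.

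**Figure D1:**
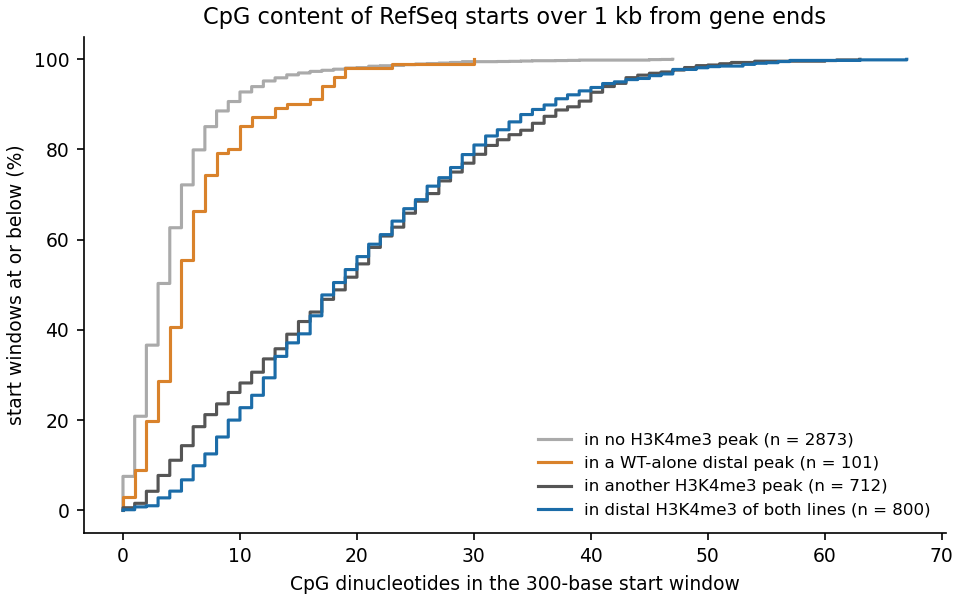
Cumulative share (%) of RefSeq start windows more than 1 kb from gene ends against their number of CpG dinucleotides in 300 bases, by H3K4me3 state in the WT line. The 800 windows in distal H3K4me3 of both lines have a median of 18 CpG and run beside the 712 in other H3K4me3 peaks (median 19), while the 101 in WT-alone peaks and the 2873 in no peak have medians of 5 and 3.

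The 5 starts listed here show this contrast in letters. Each is the 250 bases before a RefSeq start on GRCm38.p6 (the assembly of mm10), read 5′ to 3′ on the strand of the gene, with every CpG in capitals. Arhgef7 (a Rac and Cdc42 exchange factor) and Ebf3 (a developmental transcription factor) were named by rule, and Igf1 and Mitf were chosen after their values were seen.
Arhgef7, distal start in a shared region, chr8:11758115-11758364, plus strand: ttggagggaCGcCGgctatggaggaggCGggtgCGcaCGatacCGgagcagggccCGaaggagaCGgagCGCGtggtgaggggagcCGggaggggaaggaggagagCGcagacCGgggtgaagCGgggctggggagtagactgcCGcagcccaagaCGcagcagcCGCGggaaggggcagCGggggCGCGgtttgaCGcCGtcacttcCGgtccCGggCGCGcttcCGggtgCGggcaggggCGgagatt
Arhgef7, distal start in no H3K4me3 peak, chr8:11779034-11779283, plus strand: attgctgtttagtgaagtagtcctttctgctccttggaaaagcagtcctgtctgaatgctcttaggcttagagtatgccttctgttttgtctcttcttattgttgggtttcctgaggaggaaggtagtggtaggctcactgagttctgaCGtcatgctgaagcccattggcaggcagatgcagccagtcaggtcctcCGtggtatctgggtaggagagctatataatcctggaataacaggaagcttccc
Ebf3, distal start in a shared region with H3K27me3, chr7:137314446-137314695, minus strand: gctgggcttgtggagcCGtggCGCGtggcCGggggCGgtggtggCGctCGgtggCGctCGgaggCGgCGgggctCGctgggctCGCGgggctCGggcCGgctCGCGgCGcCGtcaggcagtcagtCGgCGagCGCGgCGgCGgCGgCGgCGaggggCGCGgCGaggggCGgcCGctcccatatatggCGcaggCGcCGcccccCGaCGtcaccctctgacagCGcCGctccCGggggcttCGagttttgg
Igf1, distal start in a shared region, chr10:87860861-87861110, plus strand: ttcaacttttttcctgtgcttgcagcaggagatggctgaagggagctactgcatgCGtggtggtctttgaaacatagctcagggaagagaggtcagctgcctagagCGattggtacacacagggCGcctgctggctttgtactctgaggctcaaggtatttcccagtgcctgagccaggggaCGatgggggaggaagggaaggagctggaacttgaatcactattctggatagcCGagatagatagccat
Mitf, distal start in no H3K4me3 peak, chr6:97991533-97991782, plus strand: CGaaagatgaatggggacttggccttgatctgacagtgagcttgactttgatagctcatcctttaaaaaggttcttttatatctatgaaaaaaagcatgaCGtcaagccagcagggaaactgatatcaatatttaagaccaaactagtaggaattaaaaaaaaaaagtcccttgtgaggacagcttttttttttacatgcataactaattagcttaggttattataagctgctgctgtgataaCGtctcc
The first Arhgef7 start has 30 CpG in these letters and the second has 2, although both belong to the same gene. Ebf3 has 43, Igf1 has 5 and the Mitf start has 3, so Igf1 is a CpG-poor start inside a shared region. It lies in a WT peak of 1791 bp (chromosome 10, 87859529 to 87861319) with a score of 925, where the mutant peak was 2717 bp wide with a score of 1793.

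Short motifs were counted in the same 300-base windows on both strands. The GC box GGGCGG, which overlaps the CpG count because it holds a CpG, was in 62.8% of windows in the regions (502 of 800), in 12.3% of distal windows without H3K4me3 and in 35.7% of all 32851 windows. TATAAA was in 6.25%, 16.2% and 13.6% of the same groups. The CRE palindrome TGACGTCA, which also holds a CpG, was in 2.63%, 0.766% and 1.79%, the AP-1 motif TGACTCA in 5.13%, 5.67% and 5.20%, and CCAAT in 35%, 37.8% and 37.4%. The regions' starts thus held more GC boxes and CRE palindromes and fewer TATAAA matches than unmarked distal starts, while CCAAT and AP-1 matches differed little. Other starts with H3K4me3 had similar shares, with the GC box in 58.8%, TATAAA in 7.44% and the CRE palindrome in 1.69% of distal starts in other WT peaks, and in 67.1%, 6.42% and 3.29% of starts at gene ends in such peaks. A match describes letters and not binding.

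MicroRNA genes formed a small group of the regions. Of 1005 hairpins in the RefSeq table, 38 lay within 1 kb of 32 regions. The RefSeq gene table, which lists more microRNA genes, puts them near 35 regions, 0.790% of the total against 0.916% of all WT H3K4me3 peaks. Among the 813 hairpins more than 1 kb from a gene end, 37 lay near the regions and 14 near the WT-alone peaks. The mature sequences below are given because their hairpins lie in or beside regions and include a pair with a shared seed. They are from RefSeq (GRCm38.p6), were chosen after the values were seen, and have the seed (bases 2 to 8) in capitals.
miR-132-3p (chr11:75173723-75173744, plus strand): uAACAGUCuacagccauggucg
miR-212-3p (chr11:75173443-75173464, plus strand): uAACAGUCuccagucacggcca
miR-137-3p (chr3:118433901-118433923, plus strand): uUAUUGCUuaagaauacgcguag
miR-148a-3p (chr6:51269829-51269850, minus strand): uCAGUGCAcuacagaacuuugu
miR-210-3p (chr7:141221407-141221428, minus strand): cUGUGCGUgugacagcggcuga
miR-203-3p (chr12:112130927-112130948, plus strand): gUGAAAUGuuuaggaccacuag
miR-23a-3p (chr8:84208563-84208583, plus strand): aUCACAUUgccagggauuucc
miR-27a-3p (chr8:84208727-84208747, plus strand): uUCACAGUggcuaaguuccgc
miR-24-3p (chr8:84208875-84208896, plus strand): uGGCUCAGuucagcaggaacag
Mir132 and Mir212, a CREB-responsive pair with the seed AACAGUC in common, share a single region (chromosome 11, 75171860 to 75174583) of 2724 bp in the WT line and 2640 bp in the mutant line, with scores of 2288 and 1247. Mir137, whose product is known to target Mitf, lay in a region of 2797 and 2266 bp (chromosome 3, 118433115 to 118435911) with scores of 960 and 927. Mir210, a hypoxia-induced microRNA, lay in a region of 2027 and 2159 bp with scores of 2460 and 1569. No H3K27ac peak overlapped these 3 regions in either line. Mir203, known for its part in skin differentiation, lay in a region of 1378 and 1192 bp with scores of 1277 and 662, and 176 bp of it carried WT H3K27me3. Mir148a lay 470 bp from a region of 1133 and 1273 bp with scores of 526 and 178. At the cluster of Mir23a, Mir27a and Mir24-2 the region measured 2033 bp in the WT and 1061 bp in the mutant line, with scores of 564 and 199, and it carried WT H3K4me1. Regions at Mir1191b (3156 and 1213 bp), Mir7671 (3119 and 1447 bp) and Mir199b (1725 and 1029 bp) were also narrower in the mutant line. Other microRNA regions were wider there, at Mir99a (587 and 5564 bp) and within 1 kb of Mir6976 (650 and 4286 bp) and Mir6909 (546 and 2443 bp). The mutant peak near Mir6909 reached within 1 kb of a gene end.

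H3K4me3 itself was of similar width and somewhat different score in the lists of both lines. The deposited score is read here as −10 times log10 of the peak's p value, which no source states. It starts at 50 and often ends at 3100, and it ranks peaks within 1 list. WT peaks ranged from 211 to 3997 bp with a median of 1243 bp, and their scores had a median of 328. The mutant peaks over them ranged from 262 to 20848 bp with a median of 1254 bp and a median score of 286. Gene-end peaks of both lines were wider and stronger, with medians of 2307 bp in each line and scores of 1973 and 1771, and WT-alone peaks were weaker, with medians of 683 bp and 87.9. The median mutant to WT width ratio was 0.986 in the regions and 0.990 at gene ends.

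That median hides a mixture. Of the 4429 regions, 3805 had a mutant peak that overlapped no other WT peak, and 624 (14.1%) had a mutant peak that ran over at least 1 more WT peak. In the first group the median ratio was 0.943, with 589 regions (15.5%) at least 1.5-fold narrower and 245 (6.44%) at least 1.5-fold wider in the mutant line. In the second group the median ratio was 3.17, from a median WT width of 711 bp to 2647 bp. In all, 734 regions (16.6%) were at least 1.5-fold wider and 593 (13.4%) at least 1.5-fold narrower. The shares were 9.64% and 6.79% of all WT peaks found in both lines, and 8.43% and 3.47% of the gene-end peaks. These sets were not matched for score, and the ratio moved with it. In 5 equal groups of the WT list by score, regions without WT H3K4me1 had median ratios of 1.77 in the weakest, 1.03 in the second, 0.926 in the third and 0.961 in the strongest. Of the 734 wider regions, 489 belonged to the group that ran over another WT peak. The other WT peak was at a gene end for 322 of the 624. For 345 regions (7.79%) the mutant peak itself reached within 1 kb of a gene end, with a median ratio of 4.79, and among the other 4084 the ratio was 0.962. The plot of widths shows these 345 as a cloud above the line of equal width.

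**Figure D2:**
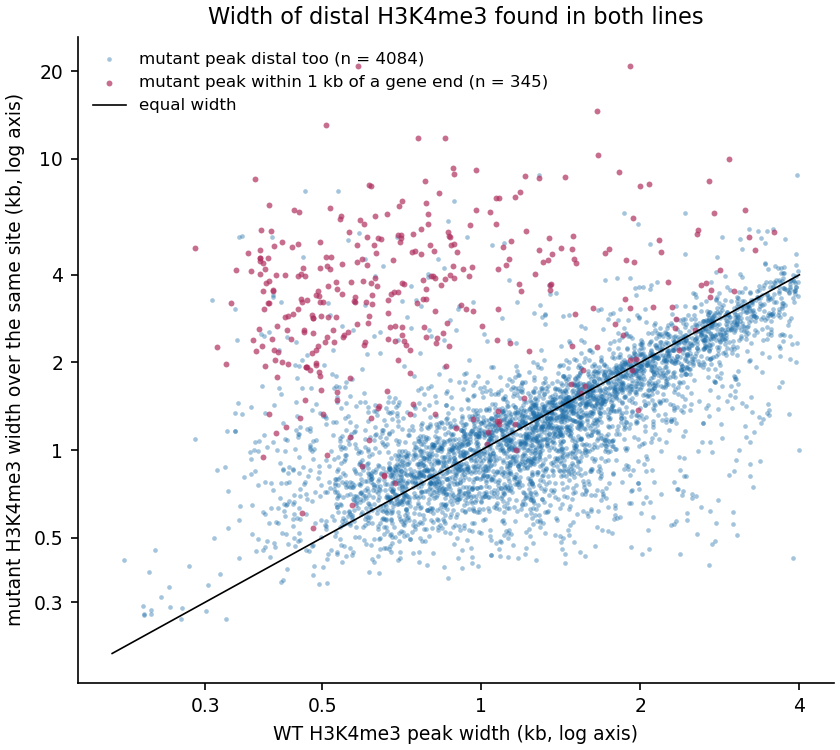
Width (kb, both axes log) of each of the 4429 distal H3K4me3 regions in the WT line and of the mutant H3K4me3 over it, each point a region, with the line of equal width. The 345 regions whose mutant peak lies within 1 kb of a gene end (median ratio 4.79) sit mostly above the line, and the other 4084 (median ratio 0.962) spread along and below it.

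Values at the limits of the rule were as follows. Distances to the nearest gene end ran from 1003 bp to 878034 bp with a median of 7968 bp, and 371 regions lay within 1.5 kb. Just outside, 412 WT peaks lay between 0.5 kb and 1 kb from an end. There were 105 regions of at least 3.5 kb, and 70 distal peaks between 4 kb and 4.5 kb were just too wide. Mutant peaks covered at least 50% of 4009 regions (90.5%), touched 32 over less than 50 bp, and missed 390 distal WT peaks by 500 bp or less.

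Named regions show both ends of this range. At or above the median WT score, the regions that narrowed most were near Lmna (nuclear lamin A and C), Tead1 (a YAP and TAZ partner), Dennd2a, Afap1 and Pnkd. The region beside Lmna (chromosome 3, 88512517 to 88515212) measured 2696 bp in the WT and 402 bp in the mutant line, with scores of 1013 and 68.7. A Tead1 region (chromosome 7, 112695946 to 112698999) went from 3054 to 512 bp, with scores of 525 and 51.5, and carried H3K4me1 in both lines and H3K27ac in the WT line. The mutant scores of these 5 regions all lay between 50.9 and 68.7, near the bottom of the list. Those that widened most included regions near Zfp503, Cenpl, Dnajc14 and Nktr, wider by 4.98-fold to 8.83-fold, each with the recurring mutant score of 3100. Near Zfp503, 1653 bp of H3K4me3 (chromosome 14, 21994802 to 21996454) lay under a mutant peak of 14589 bp that reached a gene end. The mutant peaks at Cenpl and Dnajc14 also reached a gene end, whereas that at Nktr did not. Among the strongest WT peaks below the top score, those in Prdm1 (a transcriptional repressor of B cell and germ line fate), Osbpl9 and Commd1 covered an alternative start, and that in Abi2 did not. The width ratios of these 4 were 0.829 to 1.05.

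H3K27ac overlapped 1241 regions in the WT line (28.0%, interval 26.7 to 29.4%) and 991 in the mutant line (22.4%, interval 21.2 to 23.6%). The shares over all WT H3K4me3 peaks were 36.5% and 25.8%. WT-alone peaks had 16.1% and 10.1%, and gene-end peaks 45.2% and 30.5%. Those gaps moved with H3K4me3 score. In score group 2 of 5 equal groups of the WT list, from weak to strong (98.8 to 299), where widths were alike (medians of 914 bp in the regions and 943 bp in WT-alone peaks), WT H3K27ac was at 16.0% of the regions and 20.7% of WT-alone peaks. In group 1 it was at 7.69% and 10.9%. In group 3 (299 to 1403) the values were 34.4% and 35.3%, with intervals that overlapped. At matched score the regions thus did not hold more WT H3K27ac than WT-alone peaks. Mutant H3K27ac was at 25.8% of the regions against 17.9% of WT-alone peaks in group 3. In group 2 it was at 16.0% against 13.0%, with intervals that overlapped slightly, and in group 1 at 6.95% against 7.36%. The mutant H3K4me3 score, which the rule required, was not matched. In group 5, 70.1% of 184 regions had WT H3K27ac, close to 68.8% at gene ends, and in group 3 the regions exceeded gene ends, with 34.4% against 26.1%.

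**Figure D3:**
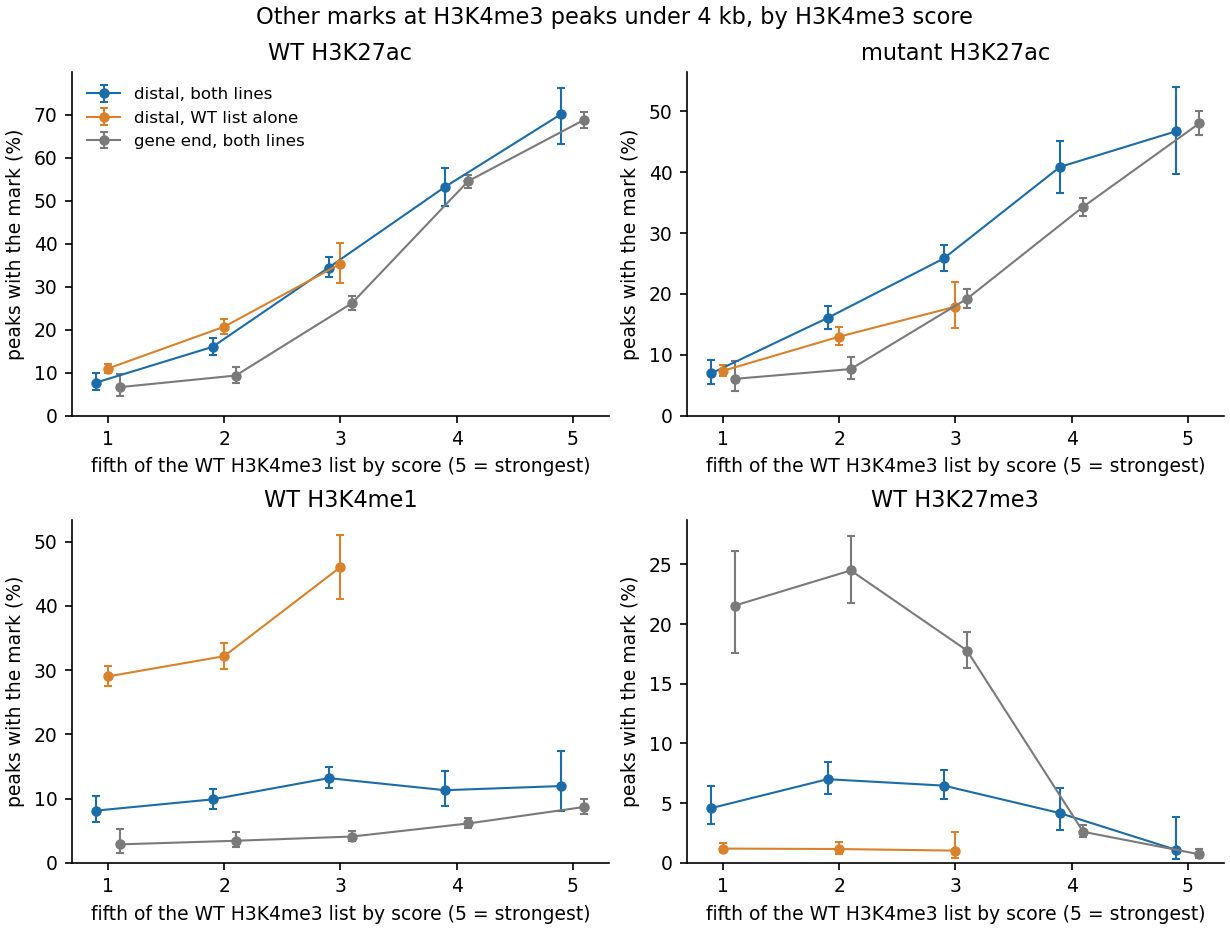
Share of H3K4me3 peaks under 4 kb that overlap each other mark (%, with 95% Wilson intervals) in 5 equal groups of the WT H3K4me3 list by score, for sets of at least 20 peaks. In group 3 WT H3K27ac is at 34.4% of distal regions of both lines and 35.3% of WT-alone peaks, whereas WT H3K4me1 is at 13.2% and 46.0%, and WT H3K27me3 at 6.47%, 1.02% and, at gene ends, 17.8%.

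H3K27ac was called in 1 line alone at more regions than in both. Both lines had it at 506 regions, the WT line alone at 735, the mutant line alone at 485 and neither at 2703. The same split was not made over all WT H3K4me3 peaks, so it is not read as a trait of the regions. With 1 library per line, a peak called in 1 list alone cannot be told apart from one missed in the other. Mutant H3K27ac was at 40.8% of regions with WT H3K27ac and 15.2% of those without. Taken by H3K27ac peak, 674 of 1531 WT peaks at the regions (44.0%, interval 41.6 to 46.5%) had a mutant peak within 1 kb, against 30.1% of all 26415 WT H3K27ac peaks. The share was 45.0% at gene-end H3K4me3, 29.6% at WT-alone peaks and 19.8% at distal H3K27ac off H3K4me3. It was higher at the regions than off H3K4me3 in each of 5 equal groups by H3K27ac −log10 p, from 35.1% against 13.0% in the weakest to 54.1% against 33.1% in the strongest. The rule asked for mutant H3K4me3 at the regions, whereas sites off H3K4me3 had it in neither line. These sets thus differ in mutant H3K4me3 by construction, and its part in the gap was not tested. With 1 bp of overlap asked instead of 1 kb, the share at the regions was 13.9% and off H3K4me3 4.87%, and the WT H3K27ac peaks at the regions had a median width of 126 bp.

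The 10 regions with the strongest H3K27ac in both lines had as their nearest protein-coding genes Cyp26c1, Fam25c, Arhgef7, Card6, Chd2, Scaf8, Kmt2e, Zfp53, Flacc1 and Fth1. In Cyp26c1, a retinoic acid hydroxylase gene, the H3K27ac −log10 p was 16.7 in the WT and 13.4 in the mutant line, over H3K4me3 of 1140 and 1618 bp (chromosome 19, 37689266 to 37690405). The Arhgef7 region around the CpG-rich start printed above (chromosome 8, 11756928 to 11760294) had −log10 p of 12.7 and 17.8, with H3K4me3 of 3367 and 3325 bp. The region for which Chd2, a chromatin remodeller gene, was the nearest protein-coding gene lay 76.3 kb from it and 7.57 kb from the nearest end of any protein-coding or lncRNA gene. It measured 3472 and 3401 bp with −log10 p of 12.8 and 12.3. Widths at 9 of the 10 stayed within 1.5-fold, and the Fam25c region narrowed from 1458 to 850 bp.

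WT H3K4me1 was less frequent at the regions than at WT-alone peaks. It overlapped 491 regions in the WT line (11.1%, interval 10.2 to 12.0%) and 1746 WT-alone peaks (31.4%, interval 30.2 to 32.6%), against 15.7% of all WT H3K4me3 peaks. The gap stood in each score group with numbers, at 8.14% against 29.0% in group 1, 9.88% against 32.2% in group 2 and 13.2% against 46.0% in group 3. In the mutant line H3K4me1 was at 6.62% of the regions (293), 7.17% of WT-alone peaks and 9.28% of all WT H3K4me3 peaks. Those pooled shares lay close together, but the sets differ in score. In group 2 mutant H3K4me1 was at 5.89% of the regions against 8.75% of WT-alone peaks, and in group 3 at 7.69% against 15.1%. In group 1 the values were 4.59% and 5.19%, with intervals that overlapped. Around the peak midpoint, WT H3K4me1 covered 17.2% of WT-alone sites at the centre and 12.3% at 1 kb. In the regions it covered 2.28% at the centre and 3.44% at 1 kb, a dip that gene-end peaks also had (0.385% and 1.24%). Mutant H3K4me1 showed no such dip in the regions, with 1.76% at the centre and 1.32% at 1 kb, but did at gene-end peaks (0.425% and 1.43%). The plot of mark coverage around the midpoint shows these shapes.

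**Figure D4:**
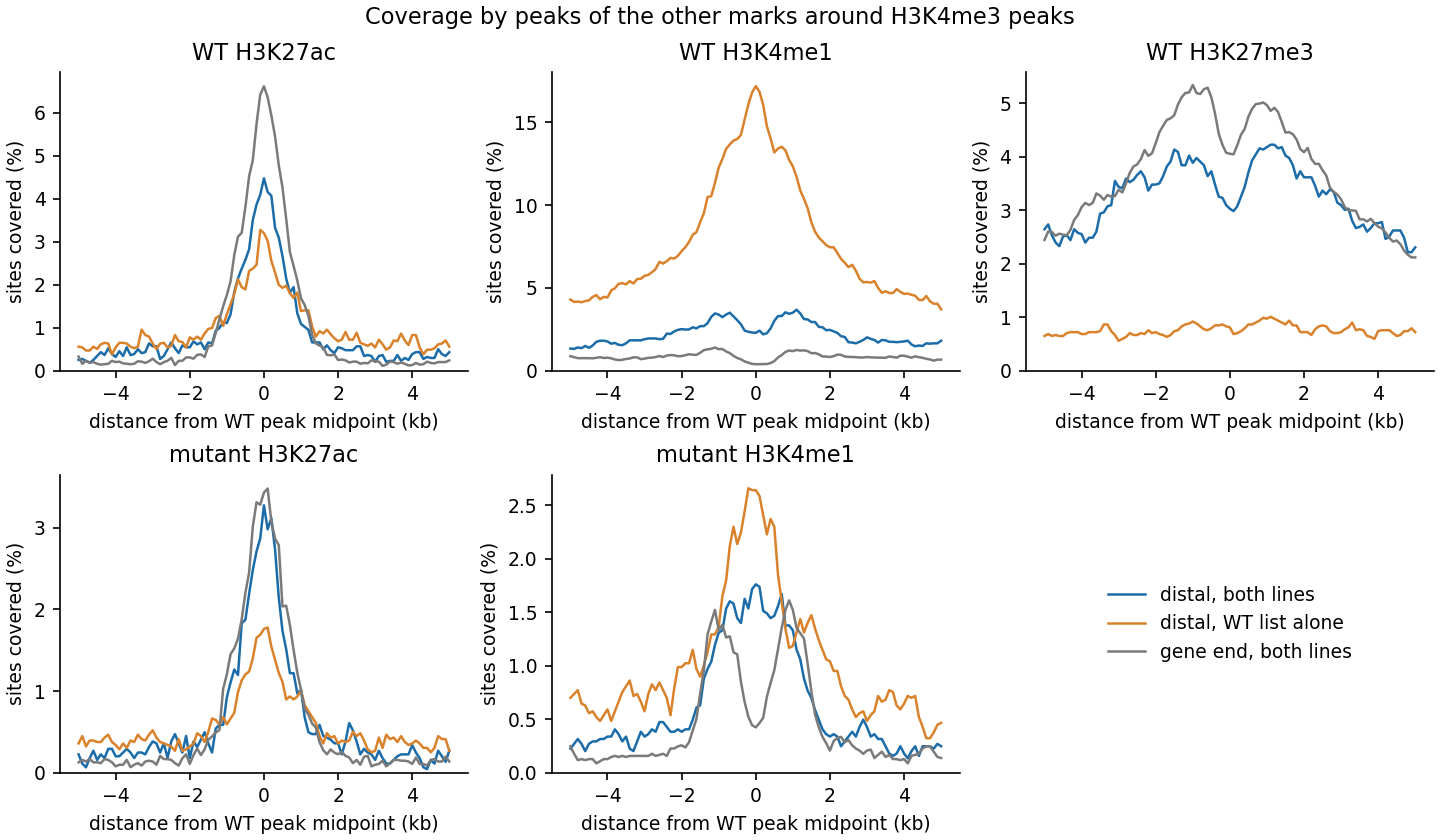
Share of sites (%) covered by peaks of each other mark against distance from the WT H3K4me3 midpoint (kb), for distal regions of both lines, WT-alone distal peaks and gene-end peaks of both lines. WT H3K4me1 peaks at 17.2% in the centre of WT-alone sites and dips to 2.28% in the centre of the regions. Mutant H3K4me1 over the regions is 1.76% in the centre and 1.32% at 1 kb, and WT H3K27me3 is 3.03% and 4.03%.

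Among the regions, those with H3K4me1 were more often narrower in the mutant line. Of the 491 with WT H3K4me1, 172 (35.0%) had a mutant peak at least 1.5-fold narrower, against 421 of 3938 (10.7%) without. In score group 2 the shares were 35.5% and 12.1%, in group 3 49.1% and 16.0%, and in group 4 24.6% and 4.92%. In group 1 they were 1.82% and 1.93%, and in group 5 4.55% (1 of 22 regions) and 2.47%. WT widths moved with H3K4me1 as well, with medians of 1979 and 1502 bp in group 3, and their part in the result was not tested. Regions with mutant H3K4me1 were also more often narrower (31.7% against 12.1%), and those with WT H3K27me3 less often (3.46% against 14.0%). Regions with WT H3K27ac were more often narrower too (17.6% against 11.8%) and less often at least 1.5-fold wider (5.48% against 20.9%). Their narrower shares were 23.2% against 12.7% in group 2 and 24.6% against 18.2% in group 3, but 2.33% against 3.64% in group 5.

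H3K4me1 recurred in the mutant line more often at the regions than away from H3K4me3. Of 545 WT H3K4me1 peaks at the regions, 147 (26.97%, interval 23.4 to 30.9%) had a mutant peak within 1 kb, against 11.6% of all 17373 and 7.69% of distal ones off H3K4me3. That order held in each of 5 equal groups by H3K4me1 −log10 p, from 19.2% against 5.14% to 36.6% against 11.4%. Here too the regions had mutant H3K4me3 by the rule and sites off H3K4me3 had none, and its part was not tested. Other sites with H3K4me3 lay closer, at 20.8% for WT-alone peaks (interval 18.99 to 22.8%) and 19.7% for gene-end peaks (interval 16.8 to 23.0%), and in the weakest group gene-end peaks had 21.1% against 19.2% at the regions. Both lines had H3K4me1 at 119 regions, the WT line alone at 372 and the mutant line alone at 174. This split too was not made over all WT H3K4me3 peaks. The regions with the strongest H3K4me1 in both lines lay near Fcgr3, Sh3pxd2a, Eef1g, Pdlim1 and Bcl2l1. In Sh3pxd2a, which encodes the podosome scaffold Tks5, a region of 2076 bp (chromosome 19, 47456549 to 47458624) had H3K4me1 −log10 p of 8.48 and 10.9 and lay under a mutant H3K4me3 peak of 8205 bp that reached a gene end. In Bcl2l1, the gene of the survival factor Bcl-xL, H3K4me3 narrowed from 1455 to 864 bp. Of these 5, 3 lay on chromosome 19.

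WT H3K27me3 overlapped 260 regions (5.87%, interval 5.22 to 6.60%), against 1.17% of WT-alone peaks, 8.50% of gene-end peaks and 5.46% of all WT H3K4me3 peaks. In score groups 1, 2 and 3 the shares were 4.59, 7.01 and 6.47% in the regions and 1.19, 1.16 and 1.02% in WT-alone peaks. Gene-end peaks of the same scores had 21.6, 24.5 and 17.8%, so in these groups the regions lay between the other sets. In group 4 the regions had 4.17% and gene-end peaks 2.60%, and in group 5 1.09% and 0.715%, with intervals that overlapped. Regions with H3K27me3 seldom had H3K27ac, at 4.23% in the WT line against 29.5% of regions without it. The 5 with the most H3K27me3 lay in Lhx4, Bcl11a, Skor1, Col2a1 and Ebf3, of which 4 encode transcription factors or co-regulators of development and Col2a1 encodes cartilage collagen. In Lhx4 the mark covered all 3363 bp of the region (chromosome 1, 155740334 to 155743696), whose H3K4me3 was 3204 bp wide in the mutant line, with scores of 2161 and 2224. In Ebf3 it covered all 1892 bp (chromosome 7, 137312826 to 137314717), including the CpG-dense start printed above. In Bcl11a the region of 2190 bp lay under a mutant H3K4me3 peak of 4801 bp that reached a gene end. In Skor1 H3K4me3 narrowed from 2053 to 1300 bp. Neither line had H3K27ac at any of the 5.

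Stretches listed as higher in mutant H3K27me3 overlapped 2 of the 4429 (0.0452%), against 0.0734% of all WT H3K4me3 peaks. By its name that list was called against the WT H3K27me3 library. The first was in Pdgfb, a growth factor gene (chromosome 15, 80011660 to 80015461), where H3K4me3 went from 3802 to 2680 bp and from a score of 3100 to 626. The second covered a start in Dysf, which encodes a membrane repair protein (chromosome 6, 84018772 to 84020115), at 1344 and 951 bp.

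The annotation sorted the regions into 4 exclusive classes. The window of an alternative RefSeq start overlapped 687, and an end of another gene type lay within 1 kb of a further 254. Elsewhere inside a gene model lay 2158, and 1330 were intergenic. The start table holds none on chromosome 18, so the share with a start is 687 of 4292 regions on the other chromosomes (16.0%, interval 14.9 to 17.1%), against 1.75% of WT-alone peaks, 74.8% of gene-end peaks and 45.1% of all WT H3K4me3 peaks. At matched score the difference from WT-alone peaks was smaller, with 4.60% against 2.02% in group 2 and 14.4% against 6.05% in group 3. Gene models held 65.8% of the regions, 74.5% of WT-alone peaks and 85.2% of all WT H3K4me3 peaks. Regions at alternative starts were the strongest class, with a median WT width of 2213 bp and score of 1630, against 1034 bp and 242 for intergenic ones. They had the most H3K27ac, at 43.5% in the WT and 31.0% in the mutant line, while intergenic regions had 24.8% and 21.7%. The classes were not matched for score, and WT H3K27ac rose from 7.69% of the regions in score group 1 to 70.1% in group 5. WT H3K4me1 was most frequent inside gene models, at 14.0%, against 8.30% at alternative starts and 8.80% between genes.

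**Figure D5:**
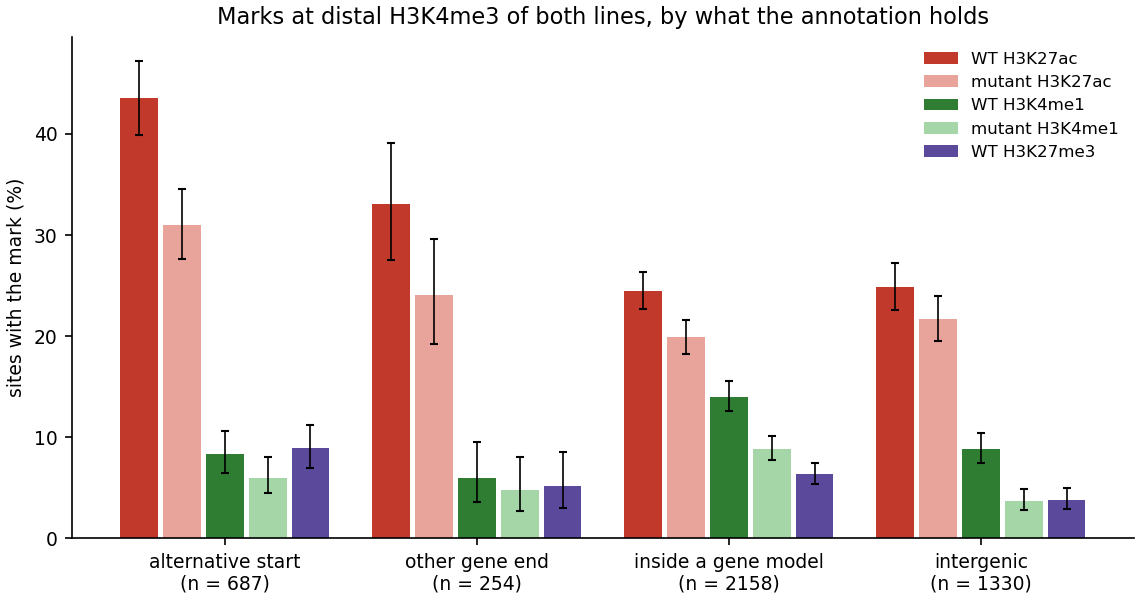
Share of distal H3K4me3 regions of both lines (%, bars from 0 with 95% Wilson intervals) that overlap each other mark, in the 4 annotation classes. Alternative starts have the tallest WT H3K27ac bar (43.5% of 687), and regions inside gene models the tallest WT H3K4me1 bar (14.0% of 2158).

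Ends of other gene types lay within 1 kb of 262 regions (5.92%, interval 5.26 to 6.65%), against 1.44% of WT-alone peaks and 3.87% of all WT H3K4me3 peaks. Transfer RNA genes, which RNA polymerase III transcribes, were the most frequent kind. They lay within 1 kb of 81 regions (1.83%, interval 1.47 to 2.27%), against 0.739% of all WT H3K4me3 peaks, 0.603% of gene-end peaks and 0.162% of WT-alone peaks. In all, 128 of 408 tRNA genes were near a region, with up to 6 at 1 region. The tRNA regions had median widths of 1818 and 1848 bp and median scores of 1184 and 913 in the WT and mutant lines. In the mutant line 4 of the 81 were at least 1.5-fold narrower. WT H3K27ac overlapped 33 of the 81 (40.7%, interval 30.7 to 51.6%), mutant H3K27ac 19 (23.5%, interval 15.6 to 33.8%) and WT H3K4me1 2. These shares were not matched for score either. Pseudogene ends lay near 73 regions (1.65%, against 1.02% of all WT H3K4me3 peaks) and transcribed pseudogenes near 39 (0.881% against 0.311%). MicroRNA genes lay near 35 (0.790% against 0.916%) and small nuclear or nucleolar RNA genes near 31 (0.700% against 0.812%), shares no higher than that background. The table of hairpin sequences, with 32 such regions, holds none on chromosome 18.

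The regions were spread over many genes. Bodies of protein-coding genes held 2652 of them, with 1710 genes holding 1 region, 426 holding 2 or more and 33 holding 4 or more. Pde4d, which encodes a cAMP phosphodiesterase and spans 1302 kb, held the most, with 8. Its strongest region (chromosome 13, 109259789 to 109262343) measured 2555 and 2371 bp with scores of 2513 and 1346, and none of the 8 had H3K27ac in either line. Apbb2, Bcor and Maml3 had 6 each, and Anks1b, Arhgap23, Bcas3, Dst, Foxp1 and Gnas 5 each. In Apbb2, an adaptor of the amyloid precursor protein, 3 of the 6 narrowed at least 1.5-fold, the most from 1573 to 433 bp. In Bcor, an X-linked co-repressor gene of a Polycomb complex, no region had H3K27ac or H3K4me1 in either line. In Gnas, the imprinted gene of a stimulatory G protein subunit, 4 neighbouring WT peaks of 401, 939, 2859 and 691 bp lay under a single mutant peak of 5384 bp.

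Genes of 14 lists were read for a region in the body or within 50 kb, beside 31.1% of all 21887 protein-coding genes. Gene length and gene density were not matched, and the lists were chosen with earlier results known, so these counts are descriptions. Among melanocyte genes 9 of 25 had a region. The transcription factor Pax3 had 3, and its middle region (chromosome 1, 78188236 to 78190561) was nearly equal in both lines, at 2326 and 2235 bp with scores of 1692 and 1402 and H3K27ac in both. Of the other 2, one went from 1319 to 613 bp with scores of 204 and 66.9 and H3K27ac in the WT line alone. The other, 2.31 kb inside the gene, went from 490 bp to a mutant peak of 3522 bp that reached the gene end. Within 50 kb of Mc1r, the melanocortin receptor gene, 3 regions were nearest to or inside other genes. The one in Tcf25 measured 3493 and 2905 bp with scores of 3100 and 2686. The other 2, of 2890 and 309 bp with WT scores of 3100 and 97.6, shared 1 mutant peak of 3271 bp with a score of 3100. Near the pigment enzyme gene Dct a region of 2065 and 1697 bp (chromosome 14, 118000678 to 118002742) had scores of 1499 and 944 and no other mark. In Mitf, named after its values were seen, a 505 bp peak (chromosome 6, 97808124 to 97808628) with a score of 66.4 lay under a mutant peak of 2343 bp with a score of 2004.5 that covered a gene end.

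Of the undifferentiated, invasive or neural crest genes 13 of 27 had a region. In Wwtr1, the gene of TAZ, 2 regions in the body measured 1791 bp in the WT against 634 bp in the mutant line and 2068 against 1446 bp, and 1 outside it measured 1092 and 1166 bp. Tead1 had 3 regions, all with WT H3K4me1 and with mutant scores of 51.5 to 139. Zeb1, a driver of epithelial to mesenchymal transition, had a body region of 3028 and 1757 bp and, outside the gene, 2 regions of 677 and 858 bp under 1 mutant peak of 1279 bp. Nes, the nestin gene, had 4 regions within 50 kb, all inside other genes, with widths from 386 to 1848 bp in the WT line.

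AP-1 subunit genes had a region at 5 of 10. Near Fosb 3 intergenic regions had H3K27ac in both lines and differed little in width, the widest from 2658 to 2564 bp with scores of 1613 and 954 (chromosome 7, 19332404 to 19335061). Near Fos a region of 2897 and 2907 bp (chromosome 12, 85485268 to 85488164) had scores of 2878 and 2324 without H3K27ac. MAPK feedback genes had a region at 9 of 16. At Phlda1 a region of 2240 and 2044 bp (chromosome 10, 111514866 to 111517105) had H3K4me3 scores of 602 and 79.97. Its H3K27ac −log10 p was 5.21 in the WT and 13.4 in the mutant line. At the Sprouty-related gene Spred2 3 regions had ratios of 0.928, 0.346 and 0.726.

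TGF-beta pathway genes had a region at 10 of 16 and IGF and insulin signalling genes at 12 of 26. Near Id3, a TGF-beta family target, the region narrowed from 2313 to 1391 bp with H3K27ac in both lines and H3K4me1 in the WT line. In Igf1r, the IGF receptor gene, an intragenic region of 2606 and 2490 bp (chromosome 7, 68128056 to 68130661) had scores of 2511 and 2010. H3K4 and H3K27 enzyme genes had a region at 7 of 23. Within 50 kb of Kdm5b, an H3K4 demethylase gene, 2 regions lay inside other genes. The one in Mgat4e measured 1765 and 1836 bp with scores of 879 and 1172, and the one in Syt2 measured 809 and 444 bp with scores of 96.1 and 59.6. The region counted for Ep300, an H3K27 acetyltransferase gene, lay inside the nearby gene Chadl and had scores of 624 and 1318.

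Cell cycle genes had a region at 10 of 18, and near Cdkn1b, the gene of the CDK inhibitor p27, 3 regions had ratios of 0.747, 0.897 and 0.486. Other developmental regulators had one at 16 of 32. In Pax6 4 regions had mutant widths of 1307 to 3632 bp, and a pair of them lay under 1 mutant peak. Of markers of other cell types, 5 of 12 fibroblast, 6 of 10 endothelial, 1 of 12 immune and 2 of 12 keratinocyte genes had a region. Of housekeeping genes 11 of 20 did.

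Values differed along the chromosomes. On chromosome 10 from 80 Mb onward the median width ratio was 1.17 (133 regions) and on chromosome 19 it was 1.14 (157 regions), against 0.973 over the 4002 on chromosomes other than these and X. Mutant H3K4me1 was at 17.3% and 14.0% of those regions, with intervals of 11.8 to 24.6% and 9.44 to 20.3%, against 6.17% elsewhere. The mutant H3K4me1 list as a whole was uneven in the same way, with 305 peaks on chromosome 10, 271 on chromosome 19 and 219 on chromosome 1, where the WT list had 829, 607 and 1176. Both stretches are named here because they differ, and the difference was not tested. The Igf1, Phlda1 and Dnajc14 regions named above lie in the chromosome 10 stretch. On X, 137 of 218 distal WT peaks (62.8%) were found in the mutant line. None of those 137 had WT H3K4me1, which allows up to 2.73%, but X held 19 of the 17373 WT H3K4me1 peaks in all.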

How the data were processed

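Peak lists were used as the authors deposited them, 1 per library and none pooled. Per the submitters' processing notes, reads were handled with FastQC, MultiQC and MACS2 on mm10. No source used here gives tool versions, the aligner or the depth. The names of the H3K4me3 lists carry the tag macs1, whereas those notes name MACS2. The deposited score of the H3K4me3 lists was taken as −10 times log10 of the p value, judged from the older MACS layout and its smallest value of 50. In the other lists each peak has a deposited fold enrichment, that is a ratio to its control, together with −log10 values for p and q.

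Peaks on the 19 autosomes, X and Y were kept. Overlap meant at least 1 bp, and the mutant width is the span of all mutant peaks over a region. Gene models, start windows and microRNAs came from RefSeq tables of GRCm38.p6, matched by symbol or position, which give no strand for gene ends. A region is named by the protein-coding gene holding its midpoint or, failing that, the one with the nearest end within 100 kb, so an lncRNA end can lie nearer. Genes of a list count regions in the body or within 50 kb, some of which lie inside other genes. Named regions were the 10 strongest in H3K27ac of both lines, 5 in H3K4me1 and 5 in H3K27me3, up to 5 in mutant-higher H3K27me3, the 5 narrowest and 5 widest ratios, the 5 highest scores, the 10 genes with the most regions and up to 4 genes per list. Some named this way are left out for length, and a few are not reported here. The regions and lists were chosen with earlier results of these data known. Python 3.11.15, pandas 2.3.3, numpy 2.4.6 and scipy 1.17.1 were used, and the overlap code was tested on simulated data. Intervals are 95% Wilson intervals. The 11 alternatives included 2 chosen after seeing the data.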

Additional observations from a re-analysis of the deposited data

How the results depend on the processing

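No paired analysis was possible because each line has 1 library per mark and the labels give no replicate numbers. Of the 11 alternatives, 8 redefine the regions, and under these their number ranged from 3120 to 4167, always within 1.5 times 4429. Of 101 recomputed values, 66 stayed inside the main 95% interval (for the count, within 1.5 times) and 35 moved outside it. With mutant peaks covering at least 50% of the WT peak, WT H3K4me1 was at 9.33%, mutant H3K4me1 at 5.61% and gene models held 64.2%. With scores of at least 100 in each list, WT H3K27ac was at 32.9%, mutant H3K27ac at 25.9%, WT H3K4me1 at 9.94%, WT H3K27me3 at 6.79% and other gene ends at 6.86%. With the WT list as long as the mutant list, the median width ratio was 0.945 and H3K27ac was at 32.3% and 25.6% in the WT and mutant lines. Beyond 2.5 kb from gene ends, the ratio was 0.968, WT H3K27me3 4.51% and gene models 62.9%. With ends of all gene types, gene models held 68.1%. With other marks counted within 1 kb, WT and mutant H3K27ac were at 35.8% and 28.7%, H3K4me1 at 17.0% and 9.21%, and WT H3K27me3 at 8.38%. With the more significant 50% of each other list they were 18.2%, 14.0%, 5.78%, 3.39% and 5.17%, and H3K27ac recurrence was 33.8%. By 1 bp that recurrence was 13.9%. Of the alternatives chosen after seeing the data, regions whose mutant peak was also distal gave a ratio of 0.962, WT H3K27ac at 29.7% and gene models at 63.5%. Without regions at a RefSeq start, WT and mutant H3K27ac were at 25.2% and 20.8%, recurrence was 41.5%, gene models held 59.5% and other gene ends 6.79%. Leaving out chromosomes 10 and 19 moved none of the 11 values outside its interval. For the changes that the alternatives do not fix by construction, the cause was not tested. Read depth, which the lists do not give, limits which weak peaks were called in each line.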

Other observations

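Regions that share a mutant peak were counted as separate, and 310 of the 4429 did so, while 86 had 2 mutant peaks and 3 had 3. The mutant peaks over the regions numbered 4363, which is 24.3% of the mutant list. In the top score group of the WT list, 73.4% of the regions off chromosome 18 held a RefSeq start, against 84.6% of gene-end peaks, and in the weakest group the values were 2.56% and 34.7%. Of the 775 distal starts with 20 or more CpG, 56 (7.23%, interval 5.61 to 9.27%) lay in no WT H3K4me3 peak, and of the 1954 with 4 or fewer, 1800 (92.1%) did.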
